A study of Mus musculus with 6 samples.

Results

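A set of 10 genes of regulated secretion were followed in mouse dermal fibroblasts, which are cultured connective tissue cells of the skin. The set comprises the vesicle priming factors Cadps and Cadps2, the granins Scg2, Scg3, Scg5 and Chgb, the peptide precursors Calca and Calcb, the peptide receptor Qrfpr, and Bex1, a small X-linked adaptor of nerve growth factor signaling. These 10 genes of the 41126 in the all-gene table were chosen by name with their values in view, because they include some of the largest rises and falls of the series. Their differences between the groups are therefore given as a description, and no test of them is offered as support.

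Cells with regulated secretion, such as neurons, endocrine cells and chromaffin cells, store peptides in dense-core granules. Granins condense the cargo in these granules, prohormone convertases and carboxypeptidases cut and trim the precursors, and priming factors ready the docked granule for release when calcium rises. Fibroblasts secrete most of their products, such as collagen, by the constitutive route, which does not use such granules. Several of the genes are classical markers of neuroendocrine cells, and the peptides encoded by Calca and Calcb are best known in sensory nerves of the skin.

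The libraries came from primary fibroblasts of whole ventral trunk skin of mice at P4, of mixed CD1, C57Bl6 background, and total RNA was sequenced. In the 3 GOF (gain of function) libraries, labelled AdCre; Ctnnb1{delta}ex3/+, adenoviral Cre had removed exon 3 of 1 Ctnnb1 allele, which yields a β-catenin protein that escapes degradation and keeps Wnt signaling on. The 3 control libraries are labelled AdGFP; +/+ and came from cells that received adenovirus carrying GFP, whereas the methods of the study describe the same transgene in the controls. Virus was given in serum-free medium for 6 hours at a multiplicity of infection (MOI) of 366 to 500, and the label for this step names adCre for every culture. The methods of the study give that range for the Cre virus and its lower end for the GFP virus, so the dose of virus may also differ between the groups. Cre and the stabilized allele, absent from controls by the group labels, therefore differ together between the groups. The cultures derive from 4 animals, 2 of which gave both a control and a GOF culture, as control replicate 0 with GOF replicate 2 and control replicate 2 with GOF replicate 0. By these animal numbers, control replicates 0 and 2 came from animals that carried the targeted allele, although both are labelled +/+. For control replicate 1 the animal number does not show this.

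Depth was 35980831 to 42834467 fragments per library, and a fragment is 1 sequenced piece of cDNA read from both ends. Levels are given as FPKM, fragments scaled to the length of the transcript and to the depth of the library, with mean ± SD over 3 libraries per group. The total of Ctnnb1 did not separate the groups (267 ± 16.3 FPKM in control and 263 ± 28.8 in GOF), and a gene total does not show the loss of an exon. Axin2, a direct target of β-catenin, was at 0.152 ± 0.0218 FPKM in control and 17.5 ± 2.66 in GOF libraries (log2 fold change 6.98 ± 0.26, SE, edgeR adjusted p = 4.95e-05). All 10 dermal fibroblast markers examined reached 1 FPKM, with a summed level of 3760 to 4930 FPKM in control and 3370 to 3770 in GOF libraries, and Col1a2 and Dcn were called lower. Vim went the other way, from 798 ± 74.6 to 1340 ± 153 FPKM without overlap. Its log2 fold change of 0.70 (edgeR adjusted p = 0.028) was under the fold threshold. Twist2, Dpt and Thy1 had log2 fold changes of 0.64, 0.57 and 0.29, Col1a1 of 0.00 and Fbln2 of -0.70, and none of these was called. The call of Col1a2 was lost with the animal as a block (log2 fold change -0.88, under the fold threshold) and without either of 2 control libraries (replicates 1 and 2) or 2 GOF libraries (replicates 1 and 2), with an adjusted p of up to 0.116 over the alternatives. The same block added Pdgfra (log2 fold change -1.18, edgeR adjusted p = 0.0024) and Lum (-2.42, adjusted p = 0.00916) as lower. Neither was called in the main fit, and the FPKM of both overlapped between the groups.

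Of the 10 genes, 6 passed the filter on low counts: Cadps, Bex1, Scg2, Calca, Calcb and Qrfpr. All 6 met the rule used to call genes in edgeR (a fold change over 2 with an adjusted p under 0.05), 5 in the direction of GOF and 1, Scg2, in the direction of control, while 12.3% of the 15462 tested genes were called (6.69% higher and 5.64% lower). Because the genes were selected on this contrast, this count follows from their selection and nothing is read from it. The other 4 (Cadps2, Scg3, Scg5 and Chgb) were too low to be tested. The FPKM ranges of control and GOF libraries were apart for 7 of the 10 genes, the 6 tested ones and Chgb, with 6 higher in GOF and Scg2 lower, as were those of 39.5% of all tested genes (20.3% higher and 19.2% lower).

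**Figure D1:**
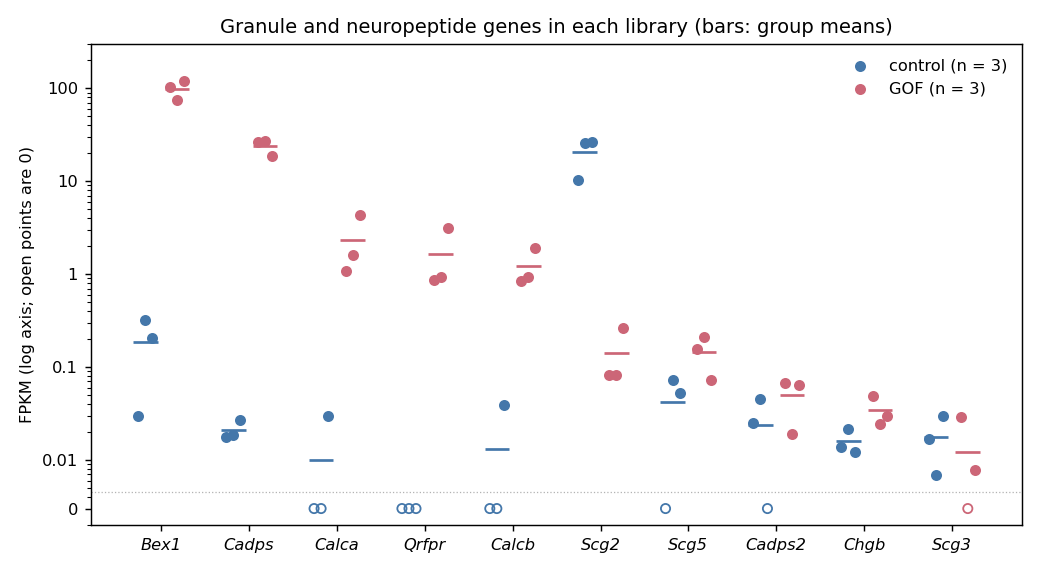
FPKM of each of the 10 genes (log axis) in the 3 control (blue) and 3 GOF (red) libraries, replicates 0 to 2 from left to right. Points are libraries, open points are values of 0 and bars are group means. Bex1 and Cadps averaged 98.8 and 24.2 FPKM in GOF libraries and stayed below 1 in controls, Scg2 showed the opposite order, and the 4 genes at the right, from Scg5 to Scg3, stayed below 1 FPKM in every library.

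The largest difference was in vesicle priming. Cadps encodes the calcium-dependent activator protein for secretion, which acts after a granule has docked and before it fuses. The gene lies on the minus strand of chromosome 14 from 12372563 to 12823079 (GRCm38), with 31 exons in its longest transcript. It had 4, 5 and 7 fragments in control replicates 0, 1 and 2, and 6930, 7188 and 4785 in GOF replicates 0, 1 and 2. In FPKM the control libraries stood at 0.0176, 0.0184 and 0.0267, and the GOF libraries at 26.4, 27.4 and 18.8. The groups were far apart, and GOF replicate 2 was the lowest of its group. The group means were 0.0209 ± 0.00504 and 24.2 ± 4.73 FPKM, and the log2 fold change was 10.13 (SE 0.30), the highest fitted value among all tested genes. Among tested coding genes, Cadps moved from percentile 0.5 by mean FPKM in control to percentile 76.5 in GOF libraries. In the 2 animals that gave both cultures, the GOF culture was 989-fold and 1070-fold above the control culture of the same animal.

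Its paralogue Cadps2, a priming factor of the same family, did not share this difference. Cadps2 had 4, 5 and 0 fragments in control and 10, 3 and 11 in GOF libraries, and the groups overlapped. The ratio of the summed, depth-scaled fragments was 2.58 (exact 95% interval 1.16 to 6.31, for counting error only). The longest stretch of identical bases shared by transcripts of the paralogues was 29 bases, shorter than the 100-base reads.

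Of the granins, only Scg2 was abundant in any library, and it was abundant in controls. Scg2 encodes secretogranin II, a granule matrix protein that is also cut into the peptide secretoneurin. It lies on the minus strand of chromosome 1 from 79434669 to 79440120, with 3 exons. The controls held 1257, 3963 and 3798 fragments, and the GOF libraries 12, 12 and 37. Control replicate 0 had fewer than the other controls, and GOF replicate 2 had more than the other GOF libraries, yet the groups stayed well apart. In FPKM the controls were at 10.2, 25.5 and 26.2, and the GOF libraries at 0.0818, 0.0828 and 0.264. The means were 20.6 ± 9.05 and 0.143 ± 0.105 FPKM, a log2 fold change of -7.21 (standard error 0.59), the third from the bottom of all tested genes. By mean FPKM among tested coding genes, Scg2 dropped from percentile 74.0 to percentile 3.6. Within the 2 animals with both cultures, the control culture exceeded the GOF culture 320-fold and 38.6-fold. In a bulk culture, fewer cells that express a gene and less RNA per cell cannot be told apart, for Scg2 as for the genes that were higher.

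The other granins stayed at the edge of detection. Scg3, which helps sort granins to the granule membrane, had 2, 1 and 4 fragments in control and 4, 0 and 1 in GOF libraries, with a ratio of 0.691 (exact interval 0.173 to 2.53). Scg5, also called 7B2, is the chaperone of the prohormone convertase encoded by Pcsk2. It had 0, 2 and 3 fragments against 9, 12 and 4, and a ratio of 4.84 (exact interval 1.82 to 16.2), or 2.42-fold against the floor of 3 fragments that every control was at or under, but the lowest GOF library and the highest control overlapped in FPKM. Chgb, chromogranin B, had 2, 4 and 2 fragments against 8, 4 and 5, with a ratio of 2.06 (exact interval 0.841 to 5.5). Its fragments tied at 4 between a control and a GOF library, while its FPKM did not overlap. With so few control fragments a fall of these 3 genes could not be detected at this depth, and small rises were not resolved. Of the granins outside the 10 genes, Chga, chromogranin A, and Pcsk1n had at most 1 fragment in any library. Vgf, the only tested one, had 10, 6 and 4 fragments in control and 13, 4 and 26 in GOF libraries. It was not called (log2 fold change 1.01, edgeR adjusted p = 0.341).

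Both Calca and Calcb went from near absence to a low level. Calca gives calcitonin or, by alternative splicing, the α form of calcitonin gene-related peptide (CGRP), a vasodilator of sensory nerves, and Calcb gives the β form. They are neighbours on chromosome 7, Calca from 114631478 to 114636357 on the minus strand and Calcb from 114718643 to 114723365 on the plus strand. Calca had 0, 0 and 1 fragments in control and 44, 60 and 170 in GOF libraries. The 3 GOF libraries were at 1.09, 1.62 and 4.32 FPKM, a mean of 2.34 ± 1.73. The ratio of the summed fragments was 265 with a wide exact interval of 47.2 to 10500, since a single control fragment sets its lower side, and the difference was 26.1-fold when each control was set at a floor of 3 fragments. Calcb had 0, 0 and 1 fragments against 28, 29 and 75, and its GOF libraries were at 0.85, 0.928 and 1.93 FPKM, a mean of 1.24 ± 0.604. Its ratio was 128 (exact interval 22.5 to 5080), and 12.6-fold against the floor. The highest library for both genes was GOF replicate 2. Calca gave 1.57, 2.07 and 2.27 times as many fragments as Calcb in GOF replicates 0, 1 and 2. Transcripts of the genes share an identical run of 61 bases at most, shorter than the 100-base reads. The gene totals do not separate calcitonin from CGRP transcripts.

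Qrfpr, the receptor for the RFamide peptides 26RFa and 43RFa, showed a pattern like that of Calca. It lies on the minus strand of chromosome 3 from 36179424 to 36222313. No control library held a fragment of Qrfpr, which allows up to 3 fragments in each, and the GOF libraries held 54, 58 and 187. The GOF levels were 0.87, 0.932 and 3.14 FPKM, so that replicate 2 again stood above the others. Qrfpr was at least 28.5-fold higher in GOF libraries.

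Bex1 was the most abundant of the 10 genes. It lies on the minus strand of chromosome X from 136213972 to 136215513, with 3 exons, and encodes a small adaptor that binds the p75 neurotrophin receptor and is abundant in neurons. It had 1, 13 and 6 fragments in control and 3748, 2671 and 4498 in GOF libraries. The controls were at 0.0299, 0.322 and 0.203 FPKM and differed among themselves more than the GOF libraries did, which were at 103, 74.5 and 119. The means were 0.185 ± 0.147 and 98.8 ± 22.5 FPKM, and the log2 fold change was 9.02 (SE 0.47), the third highest fitted value of all tested genes. Bex1 went from percentile 6.4 to percentile 94.2 by mean FPKM among tested coding genes. In the animal of control replicate 2 and GOF replicate 0 the ratio was 507, from 6 control fragments, and in the other animal with both cultures 0.0299 FPKM, from 1 fragment, stood against 119. The ratio of the summed fragments was 528 (exact interval 342 to 865). The log2 fold change was 10.04 with the animal as a block and 9.88 without control replicate 1. That library held 13 of the 20 control fragments and does not enter the block contrast either, so these values are not separate results. Bex1 overlaps Tceal7 on the opposite strand, and Tceal7 had 1, 5 and 2 fragments in control and 18, 10 and 25 in GOF libraries, far fewer than Bex1 in the latter. A stranded kit was used, and whether the counting used strand is not given in the sources used here.

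**Figure D2:**
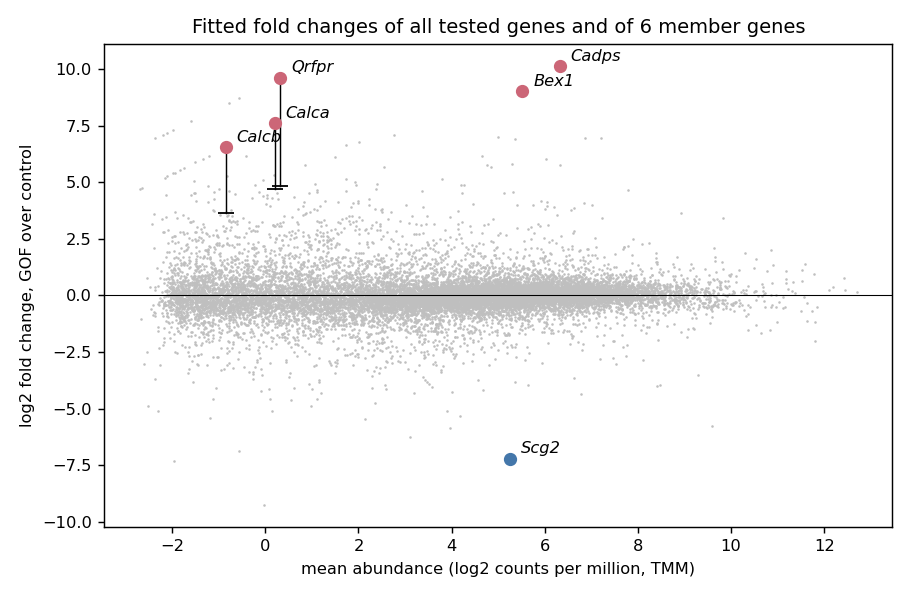
Log2 fold change of GOF over control against mean abundance (log2 CPM, fragments scaled to library size) for the 15462 tested genes (grey), with the 6 tested members in red (higher in GOF) or blue (lower). Black ticks under Qrfpr, Calca and Calcb mark the fold change against a floor of 3 fragments per control library, at 28.5-fold, 26.1-fold and 12.6-fold. Cadps and Bex1 combined very high fold changes with an appreciable abundance in GOF, on 16 and 20 control fragments in all. The fitted values of Qrfpr, Calca and Calcb rested on controls with 0, 1 and 1 fragments in all.

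The genes that were higher in GOF did not vary alike over the 3 GOF cultures. Cadps had the smallest spread, with a coefficient of variation of 19.6%, followed by Bex1 with 22.8%. The values were 48.8% for Calcb, 74.0% for Calca and 78.5% for Qrfpr. GOF replicate 2 held the highest value for Bex1, Calcb, Calca and Qrfpr and the lowest for Cadps. Relative to the GOF mean, this replicate was at 0.775 for Cadps, 1.20 for Bex1, 1.56 for Calcb, 1.84 for Calca and 1.91 for Qrfpr. Whether this reflects the culture or its animal cannot be told apart.

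**Figure D3:**
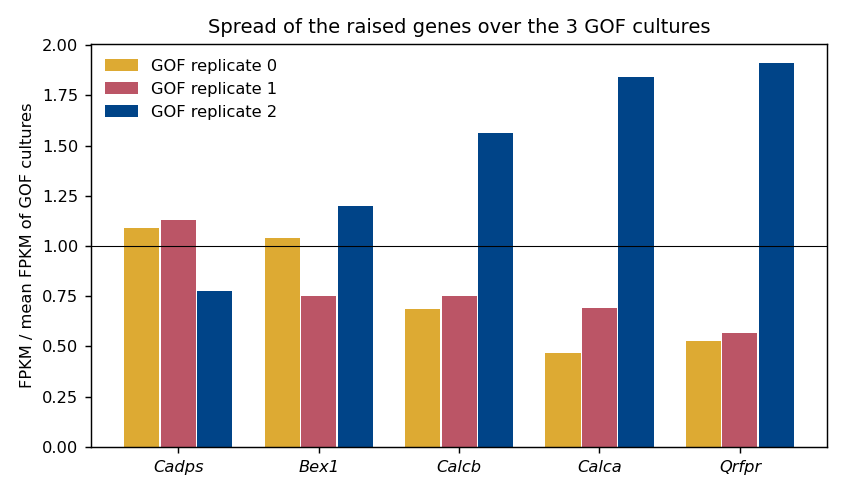
FPKM of the 5 genes that were higher in GOF libraries, divided by the mean of the 3 GOF cultures, for GOF replicates 0 (yellow), 1 (red) and 2 (blue). The horizontal line marks the mean. GOF replicate 2 ranged from 0.775 of the mean for Cadps to 1.91 for Qrfpr.

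The promoters of the genes were read to see what sequence lies at the start sites of the genes that moved in opposite directions. RefSeq promoters of GRCm38.p6, from 250 bases before to 50 bases after the start site, were found for 9 of the 10 genes, all except Calcb. Both strands were searched for the Tcf/Lef letters CTTTGAA and CTTTGAT, through which β-catenin reaches DNA, for the cAMP response element TGACGTCA, and for TTCAGCACC, a part of the site of the neuronal repressor REST. Among 32851 promoters of the same length, 5.14% held CTTTGAA, 3.73% CTTTGAT, 1.79% TGACGTCA and 0.371% TTCAGCACC. The Scg2 promoter held CTTTGAA at 111 bases and TGACGTCA at 68 bases before the start site, and TTCAGCACC on the opposite strand at 7 bases before it. The RefSeq start of Scg2 lies downstream of the start of its GENCODE gene model, which covers the TGACGTCA and the TTCAGCACC match but not CTTTGAA. Chgb also held TGACGTCA, at 72 bases before the RefSeq start, and its GENCODE gene model likewise starts further upstream. Calca held CTTTGAA on the opposite strand at the far end of the window, 250 bases before the start site. No match was found in this window for Cadps, Bex1, Qrfpr, Cadps2, Scg3 or Scg5. The promoters of Scg2, Cadps, Bex1 and Calca are printed 5′ to 3′ on the strand of the gene, with matches in capitals, so that the motif-bearing Scg2 and Calca can be set beside Cadps and Bex1. Their windows are chr1:79439977-79440276 for Scg2, chr14:12823030-12823329 for Cadps, chrX:136215464-136215763 for Bex1 and chr7:114636308-114636607 for Calca, all on the minus strand.
Scg2: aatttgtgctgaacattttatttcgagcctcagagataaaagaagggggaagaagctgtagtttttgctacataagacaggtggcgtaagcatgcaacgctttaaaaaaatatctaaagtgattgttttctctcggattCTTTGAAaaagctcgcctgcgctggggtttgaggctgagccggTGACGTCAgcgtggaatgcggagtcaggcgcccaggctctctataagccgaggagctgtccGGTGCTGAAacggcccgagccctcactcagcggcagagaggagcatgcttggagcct
Cadps: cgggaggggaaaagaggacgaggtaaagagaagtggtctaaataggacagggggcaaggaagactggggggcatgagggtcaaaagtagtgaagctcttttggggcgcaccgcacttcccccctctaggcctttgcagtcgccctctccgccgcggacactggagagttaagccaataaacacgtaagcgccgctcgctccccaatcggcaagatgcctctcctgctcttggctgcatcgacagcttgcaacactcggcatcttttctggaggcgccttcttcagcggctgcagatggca
Bex1: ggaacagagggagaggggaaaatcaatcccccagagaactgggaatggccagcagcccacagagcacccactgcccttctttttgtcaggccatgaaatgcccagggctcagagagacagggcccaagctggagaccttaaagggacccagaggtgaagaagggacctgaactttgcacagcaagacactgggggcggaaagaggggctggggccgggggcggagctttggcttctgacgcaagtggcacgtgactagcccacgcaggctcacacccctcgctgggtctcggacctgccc
Calca: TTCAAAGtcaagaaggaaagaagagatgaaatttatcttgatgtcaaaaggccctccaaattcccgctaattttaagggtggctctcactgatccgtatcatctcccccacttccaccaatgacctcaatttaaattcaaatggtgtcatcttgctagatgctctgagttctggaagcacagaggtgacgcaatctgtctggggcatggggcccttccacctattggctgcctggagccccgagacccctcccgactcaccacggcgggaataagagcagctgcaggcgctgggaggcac
A match is a run of letters and does not show that a factor bound there, and the absence of a match concerns this window only.

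The neighbours of the 10 genes were examined to see whether the differences extended along the chromosome. Of 18 adjacent coding genes outside the list, 15 were tested, of which 5 were called higher, 1 lower and 9 not called, with a median log2 fold change of 0.48 against -0.02 over all tested genes. Of all tested genes, 6.69% were called higher and 5.64% lower. Among the 5 higher neighbours, Tceal5 and Tceal9 are relatives of Bex1 and are counted again with its family below. Next to Cadps, Synpr lies 462 kb away and Fezf2 24.4 kb away. Synpr, a synaptic vesicle protein, was at 0.232 ± 0.103 FPKM in control and 0.579 ± 0.0622 in GOF libraries (log2 fold change 1.34, adjusted p = 0.0403 from edgeR). Its call was lost with the animal as a block (adjusted p = 0.119) and without GOF replicate 0 (0.122), GOF replicate 1 (0.107), control replicate 1 (0.145) or control replicate 2 (0.121). Fezf2 had no fragment in any library. Next to Scg2, the potassium channel subunit Kcne4, 615 kb away, fell from 81.0 ± 15.3 to 17.9 ± 3.55 FPKM (log2 fold change -2.19, adjusted p = 5.09e-04 from edgeR), while Ap1s3 at 167 kb was not called (log2 fold change -0.50). Around Calca and Calcb, Cyp2r1 and Insc were not called, with log2 fold changes of 0.02 and 0.64. Beside Qrfpr, Anxa5, a calcium-dependent phospholipid-binding protein 227 kb away, rose from 370.0 ± 42.1 to 1140 ± 361 FPKM (log2 fold change 1.61, adjusted p = 0.00359 from edgeR). The closer D3Ertd254e, at 9.08 kb, had a log2 fold change of 0.48, under the fold threshold. Beside Scg5, the BMP antagonist Grem1 at 17.7 kb was at 49.5, 106 and 146 FPKM in control and 407, 489 and 197 in GOF libraries (log2 fold change 1.88, adjusted p = 0.0292 from edgeR), a call lost without GOF replicate 0 (adjusted p = 0.0925), GOF replicate 1 (0.0878) or control replicate 1 (0.083). Arhgap11a, on the other side of Scg5, was not called (log2 fold change 0.59). The neighbours of Chgb, Shld1 and Trmt6, and those of Scg3, Lysmd2 and Bmp5, were not called, with log2 fold changes from -0.72 to 0.11.

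Bex1 differed from the other genes in that its surroundings hold relatives of its own. The Bex and Tceal genes form a cluster of small X-linked genes, many of them abundant in brain. Of 8 tested members of the family besides Bex1, 6 were called higher and none lower (75.0% called, beside 12.3% of all tested genes). Their median log2 fold change was 1.91. Tceal5, whose gene ends 10.1 kb from Bex1, rose from 0.130 ± 0.00117 to 5.87 ± 2.14 FPKM (log2 fold change 5.13, adjusted p = 3.18e-04 from edgeR). Its GOF libraries were at 7.57, 6.57 and 3.46 FPKM, and GOF replicate 2, highest for Bex1, was the lowest for Tceal5. Bex3, which takes part in p75 neurotrophin receptor signaling, rose from 84.1 ± 15.2 to 380.0 ± 24.1 FPKM (log2 fold change 2.12, adjusted p = 2.52e-04). Tceal8 rose from 149 ± 27.2 to 490.0 ± 70.0 FPKM (log2 fold change 1.71, adjusted p = 8.15e-04), and Tceal9, 29.6 kb from Bex1, from 345 ± 40.9 to 1130 ± 238 FPKM (log2 fold change 1.70, adjusted p = 8.51e-04). Bex3, Tceal8 and Tceal9 were thus already well expressed in controls, unlike Bex1 and Tceal5. Bex4 and Tceal7 were also called higher, Tceal7 with the reservation on strand given for Bex1, and its call was lost without GOF replicate 0, GOF replicate 2 or control replicate 2 (adjusted p up to 0.0727 over the alternatives). The 2 family members not called were Tceal3 and Tceal1, which start 375 and 492 kb from the start site of Bex1. Of 14 tested coding genes outside the family within 1 Mb, 2 were called higher (Arxes1 and Arxes2) and 1 lower (Gprasp2). With the animal as a block the calls of Arxes1 (adjusted p = 0.0724) and Gprasp2 (adjusted p = 0.0836) were lost, as they were without GOF replicates 0 or 1 or control replicates 1 or 2, and the FPKM of Gprasp2 overlapped between the groups. With those libraries left out and under the other alternatives the adjusted p from edgeR, DESeq2 or limma reached 0.111 for Arxes1 and 0.335 for Gprasp2.

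**Figure D4:**
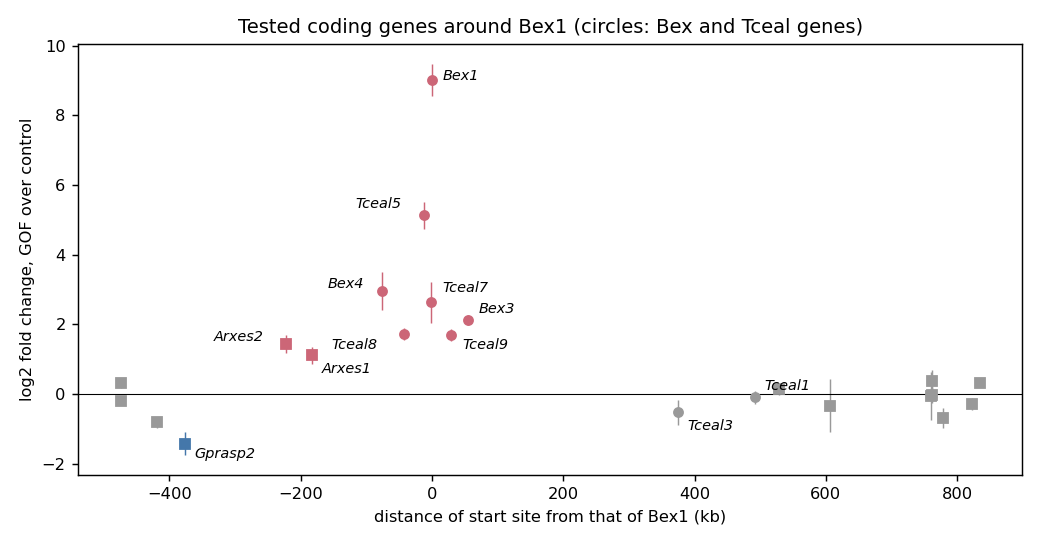
Log2 fold change of GOF over control for the tested coding genes within 1 Mb of Bex1, against the distance between start sites in kb. Circles are Bex and Tceal genes and squares other genes, red marks genes called higher, blue lower and grey not called, and bars are standard errors. The 6 called relatives of Bex1 started within 76.5 kb of it, and the called squares were Arxes2, Arxes1 and Gprasp2.

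Other genes of the secretory pathway and of related families were described with lists of genes of known role, chosen with earlier results of these data known. Lists of peptide precursors, peptide receptors, the Bex and Tceal family and neuroendocrine transcription factors were included. Over all lists, 261 genes besides the 10 were listed and 119 of them tested, of which 27 were called higher and 5 lower. Thus 26.9% of the tested list genes were called, beside 12.3% of all tested genes, and the median log2 fold change was 0.35 against -0.02. Leaving out each library in turn removed the call of 11 of these 32 genes in at least 1 case.

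Among 12 tested enzymes that mature prohormones, 3 were called higher and none lower, with a median log2 fold change of 0.48. Pcsk5, named after its values were seen, went the other way, from 2.32 ± 0.671 to 1.20 ± 0.149 FPKM without overlap (log2 fold change -0.96, just under the fold threshold, edgeR adjusted p = 0.031), and 1 enzyme was called lower with upper-quartile scaling, without control replicate 0 and without GOF replicate 1. Qpct, glutaminyl cyclase, which caps the amino end of peptides, rose from 11.0 ± 2.17 to 46.5 ± 8.93 FPKM (log2 fold change 2.05, adjusted p = 5.75e-04 from edgeR). Cpm, a carboxypeptidase of the cell surface that trims basic residues, rose from 0.666 ± 0.145 to 2.37 ± 1.10 FPKM (log2 fold change 1.89, adjusted p = 0.0126), a call lost without GOF replicate 0 (adjusted p = 0.0517). Pcsk1, a prohormone convertase of granules, rose from 0.390 ± 0.0583 to 0.966 ± 0.313 FPKM (log2 fold change 1.30, adjusted p = 0.0283). The call of Pcsk1 was lost without GOF replicate 1 (adjusted p = 0.073) or control replicates 0 (0.0513), 1 (0.0732) or 2 (0.0898). With the animal as a block, 5 of these enzymes were called, the additions being Cpe and Pcsk6. Cpe, the main carboxypeptidase of granules, is named here after its values were seen. It was abundant, at 47.8, 113 and 148 FPKM in control and 358, 284 and 175 in GOF libraries, without overlap (log2 fold change 1.41, adjusted p = 0.0506, and 0.00195 with the animal block).

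Of 38 tested genes of vesicle priming, docking and fusion besides Cadps and Cadps2, 6 were called higher and none lower, which is 15.8% of them beside 12.3% of all tested genes, and the median log2 fold change was 0.15. DESeq2 and the animal block each called 7 higher and 1 lower. With the block Sytl2 was added as higher (log2 fold change 1.07, edgeR adjusted p = 0.00381) and Rab3c as lower (-1.79, adjusted p = 0.00702). In the main fit Rab3c was at -1.26 (edgeR adjusted p = 0.101), and its FPKM did not overlap between the groups. Rab27b, a GTPase that brings granules to the plasma membrane, rose from 1.06 ± 0.149 to 5.91 ± 1.28 FPKM (log2 fold change 2.43, adjusted p = 0.00119 from edgeR). Sytl5, an effector that binds Rab27, rose from 0.837 ± 0.142 to 2.51 ± 0.364 FPKM (log2 fold change 1.57, adjusted p = 0.00229). Unc13c, a priming factor of the Munc13 family, rose from 0.0655 ± 0.0292 to 0.411 ± 0.124 FPKM (log2 fold change 2.70, adjusted p = 0.00354). All of these stayed below the GOF level of Cadps. The neuronal fusion protein Snap25 had at most 1 fragment in any library. None of 15 tested genes of granule formation and membrane was called by edgeR, although 6 had an unadjusted p under 0.05 in the direction of GOF and 2 in that of control. Ica1 (log2 fold change 0.95, adjusted p = 0.00261) and Sypl (log2 fold change 0.62, adjusted p = 0.017), named after their values were seen, passed the adjusted p but not the fold threshold. DESeq2 and the animal block each called 1, Cyb561, lower (log2 fold change -1.15, adjusted p = 0.0927 in edgeR, and 0.0103 with the block), and 1 gene was called lower without control replicate 0 and 1 higher without GOF replicate 2.

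**Figure D5:**
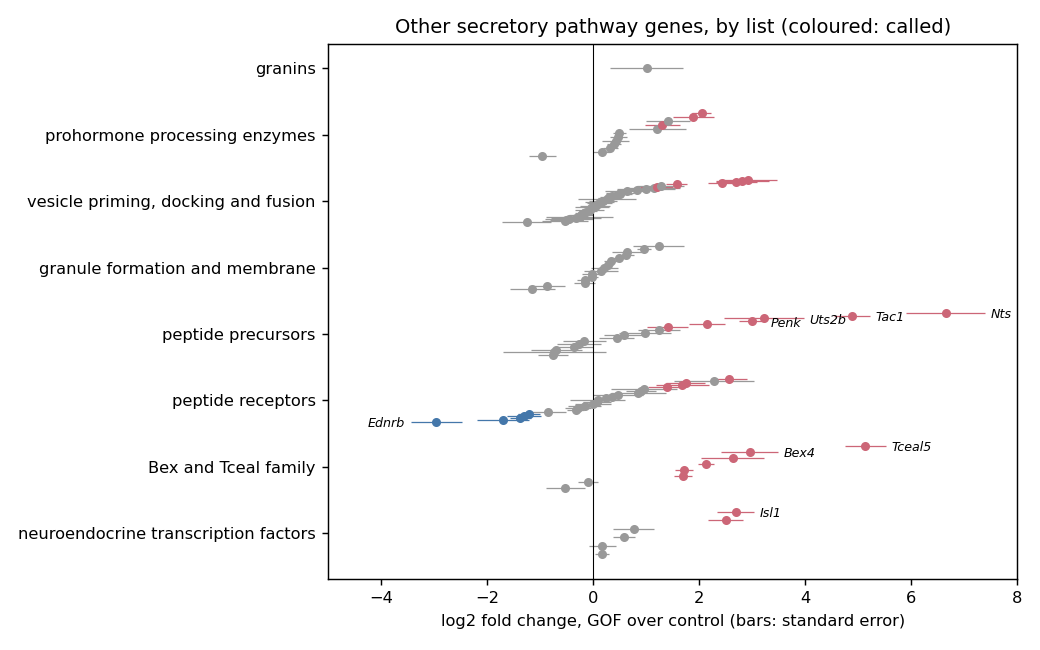
Log2 fold change of GOF over control with its standard error for the 119 tested list genes other than the 10 members, by list. Red points were called higher, blue points lower and grey points not called. Calls were most frequent in the Bex and Tceal family (6 of 8) and absent from the genes of granule formation (0 of 15), and the receptors held calls of both directions.

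Peptide precursors other than Calca and Calcb also held several genes that were higher in GOF. Of 64 listed, 36 had at most 3 fragments in every library, and 16 were tested. Of these 16, 6 were called higher and none lower (37.5% called, beside 12.3% of all tested genes). The median log2 fold change was 0.78. Without GOF replicate 2, 4 were called higher and 1 lower. Adm, named after its values were seen, went the other way, from 82.7 ± 4.63 to 49.0 ± 22.0 FPKM without overlap. It was not called (log2 fold change -0.76, edgeR adjusted p = 0.109). Tac1, the precursor of substance P, which sensory nerves release together with CGRP, was at 1.06, 1.01 and 1.89 FPKM in control and 43.0, 50.9 and 27.4 in GOF libraries. On the log2 scale it rose by 4.88 ± 0.34 (SE, edgeR adjusted p = 2.59e-04), and GOF replicate 2 was its lowest GOF library, the opposite of Calca. Penk, the enkephalin precursor, rose from 0.907 ± 0.239 to 6.03 ± 0.599 FPKM (log2 fold change 2.99, adjusted p = 4.26e-04). Nts, the neurotensin precursor, was at 0.12, 0 and 0.0171 FPKM in control and 3.5, 2.93 and 7.51 in GOF libraries (log2 fold change 6.65, adjusted p = 0.0013), highest in GOF replicate 2 like Calca. Cck, the cholecystokinin precursor, named after its values were seen, was the most abundant of the called precursors and rose from 152 ± 46.7 to 704 ± 364 FPKM (log2 fold change 2.14, adjusted p = 0.00484). Vip and Uts2b completed the called genes, and each lost its call without some single libraries, with adjusted p up to 0.12 for Vip and 0.0707 for Uts2b.

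Receptors besides Qrfpr moved in both directions. Of 23 tested, 4 were called higher and 5 lower, with a median log2 fold change of 0.08. Thus 39.1% were called, beside 12.3% of all tested genes (6.69% higher and 5.64% lower). The balance of directions varied, with 7 higher and 5 lower without the filter on low counts, 2 and 6 with the animal block, and 6 and 4 without GOF replicate 2. Ramp3, a partner of the calcitonin receptor family that shapes the response to adrenomedullin and amylin, rose from 3.88 ± 0.532 to 24.0 ± 11.4 FPKM (log2 fold change 2.56, adjusted p = 0.00251 from edgeR). The receptor of CGRP itself is formed by Calcrl and Ramp1. Calcrl was at 8.87 ± 0.166 and 6.79 ± 1.25 FPKM (log2 fold change -0.33, adjusted p = 0.186), and Ramp1 at 0.598 ± 0.218 and 0.607 ± 0.141 FPKM (adjusted p = 0.999), so neither was called. Ednrb, the endothelin B receptor, fell from 3.36 ± 1.85 to 0.419 ± 0.132 FPKM (log2 fold change -2.96, adjusted p = 0.00572), and Adcyap1r1, the receptor of the peptide PACAP, from 1.48 ± 0.188 to 0.582 ± 0.140 FPKM (log2 fold change -1.38, adjusted p = 0.0037). The count of 9 receptors was 5 without GOF replicate 0 and also without GOF replicate 1.

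Transcription factors of neuroendocrine cells were mostly too low to be tested. Of 20 listed, 8 had at most 3 fragments in every library, and 6 were tested. Of these 6, 2 were called higher and none lower (33.3% called, beside 12.3% of all tested genes). Isl1, a factor of sensory neurons and endocrine cells, rose from 0.159 ± 0.068 to 0.955 ± 0.0631 FPKM (log2 fold change 2.69, adjusted p = 0.00222 from edgeR). Gata3 rose from 0.133 ± 0.0215 to 0.803 ± 0.0751 FPKM (log2 fold change 2.50, adjusted p = 0.00245). Rest, the repressor of neuronal genes, was at 15.8 ± 2.52 and 17.9 ± 1.21 FPKM with a log2 fold change of 0.17 (adjusted p = 0.405). Gata2, Hand2 and Creb3l1 were not called either, with log2 fold changes of 0.17, 0.58 and 0.76.

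Markers of other cells of the skin were read beside these genes. The summed level of 14 neuron markers was 32.2 to 47.0 FPKM in control and 47.6 to 64.1 in GOF libraries. The 4 genes Nefl, Nefm, Gap43 and Uchl1 were called higher, while the defining neuronal gene Rbfox3 had at most 3 fragments in every library. Map2 went the other way, from 3.96 ± 2.30 to 1.21 ± 1.56 FPKM with overlap (log2 fold change -2.05, edgeR adjusted p = 0.123, and -1.61 and 0.00767 with the animal block), and Tubb3 was not called (-0.41 on the log2 scale, edgeR adjusted p = 0.378). Merkel cells are the neuroendocrine cells of the epidermis, and their 8 markers summed to 8.33 to 9.38 FPKM in control and 9.75 to 17.8 in GOF libraries. Krt20, Krt18 and Isl1 were called higher and Piezo2 lower. The call of Krt18 was lost with the animal block (log2 fold change 0.99) and without GOF replicate 0, GOF replicate 1 or any 1 control (adjusted p up to 0.0935 over the alternatives), and the defining factors Atoh1 and Pou4f3 had at most 3 fragments in every library. The 7 keratinocyte markers summed to 0.463 to 0.647 FPKM in control and 2.95 to 6.77 in GOF libraries, with Dsp as the called gene, while Krt14 and Krt1 had at most 3 fragments throughout. Schwann cell markers did not separate the groups, at 5.20 to 12.8 and 6.18 to 11.4 FPKM, nor did mast cell markers, at 0.0911 to 0.422 and 0.065 to 0.407 FPKM. Melanocyte markers were at 5.80 to 12.5 FPKM in control and 3.0 to 7.15 in GOF libraries, with Mlana called lower, a call lost without GOF replicate 0 or control replicate 1 (adjusted p up to 0.0744 over the alternatives). Macrophage markers were at 10.8 to 19.3 and 8.55 to 24.8 FPKM, and endothelium markers at 4.32 to 4.47 and 2.68 to 6.54 FPKM. Within these overlapping sums, Csf1r of macrophages was called higher (log2 fold change 1.52, edgeR adjusted p = 0.00186), and of the endothelial genes Kdr was called higher (1.77, adjusted p = 0.011) and Tek lower (-2.27, adjusted p = 0.019), the last lost without GOF replicate 0 (adjusted p up to 0.0855 over the alternatives). The part of such cells in the values of the 10 genes was not tested beyond these levels.

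The genes whose pattern was most like that of Cadps and Scg2 were found by the correlation of log2(FPKM + 0.1) over the 6 libraries. For Cadps these were Spink13, Mycl and Bpgm, each with Pearson r = 0.999. Mycl went from 1.33 ± 0.0400 to 3.58 ± 0.255 FPKM and Bpgm from 10.4 ± 0.83 to 110.0 ± 13.4 FPKM, while Spink13 was listed at 0 in the controls and had 15, 18 and 13 fragments in GOF libraries. For Scg2 they were Slitrk2 (r = 0.999), Sox4 and Rragb (r = 0.998 each), of which Sox4 went from 107 ± 13.4 to 33.5 ± 5.03 FPKM. With 2 groups of 3 libraries the difference between the groups dominates such values, and 727 of 15461 genes had r over 0.95 with Cadps and 523 with Scg2.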

How the data were processed

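RNA was measured in 3 control and 3 GOF cultures. The authors aligned reads to mm10 with TopHat, counted them with Cuffdiff and deposited estimated counts of fragments per gene (raw_frags) with FPKM. Versions, annotation and use of strand in counting are not given in the sources used here. Estimated counts, of which 4.95% were not whole, were rounded, and gene IDs were matched to GENCODE M21 (97.9%). Cuffdiff listed 32 genes as failed, 23 of them for too many fragments, and these were left out. The lncRNA table and 6 columns of values per library were not used.

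The main test was edgeR 4.0.16 (quasi-likelihood, TMM, filterByExpr with a minimum of 10 fragments) in R 4.3.3, fitted on all 6 libraries and adjusted by Benjamini-Hochberg over 15462 genes. A gene was called at an adjusted p under 0.05 with a fold change over 2. Scripts were tested on simulated data. Alternatives were DESeq2 1.42.0, upper-quartile scaling, other filters, limma 3.58.1 on log2(FPKM + 1) and log2(FPKM + 0.1), blocks by label number or animal, and each library left out. Lower bounds use 3 fragments per control library. Exact 95% intervals are binomial, made with SciPy 1.17.1, and cover counting error only. Promoters came from RefSeq.

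Same-numbered libraries did not deviate together from their group means (r = -0.46, 0.03 and -0.47), whereas those of the same animal did (r = 0.42 and 0.51). The animal numbers in the labels thus pair 2 cultures of each group, and the animal block leaves 1 residual degree of freedom. Control replicate 1 and GOF replicate 1 come from animals with 1 library each. The block absorbs these libraries, so its fold changes and p-values rest on the 2 pairs only. The p-values treat the 6 cultures as independent.

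The 10 genes and all lists were chosen with earlier results of these data known. Named by rule were the 10 genes, up to 3 called genes per list with the smallest adjusted p, every tested factor of the neuroendocrine list, the nearest coding neighbours, the 3 genes most like Cadps and Scg2, and Ctnnb1 and Axin2. Other genes were named outside this rule with their values in view. Among them are Pcsk5, Cpe, Ica1, Sypl, Cyb561, Rab3c, Sytl2, Adm, Cck, Vip, Uts2b, Calcrl, Ramp1, Chga, Vgf and Snap25. Bex4, Tceal7, other genes around Bex1 and several cell type markers were likewise added.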

Additional observations from a re-analysis of the deposited data

How the results depend on the processing

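The 6 tested members were chosen on this contrast, so their calls under the alternatives add no support. Calcb and Qrfpr did not reach FPKM of 1 in 3 libraries, so that filter gave no value for them. The fitted log2 fold changes of the 6 members ranged from 4.61 to 10.33 for Cadps, 6.38 to 10.04 for Bex1, 1.61 to 9.47 for Calca, 1.11 to 8.42 for Calcb, 1.30 to 9.90 for Qrfpr and -7.95 to -4.14 for Scg2, with the values nearest to 0 from limma on log2(FPKM + 1), where the pseudocount compresses low levels. Fitted values of Calca, Calcb and Qrfpr depend on how near-empty controls are handled. With limma on log2(FPKM + 1), 877 genes were called in all, 15 on the other secretory lists, 1 processing enzyme, 2 vesicle genes, 3 receptors and 0 transcription factors. With FPKM of at least 1 in 3 libraries, 19 list genes were called, 3 vesicle genes, 5 receptors and 0 factors, since fewer genes were tested. The replicate block by animal called 5 processing enzymes and 1 gene of granule formation. Among the called genes of the lists, markers and neighbourhoods, it lost Synpr, Sstr4, Bdkrb2, Col1a2, Krt18, Arxes1 and Gprasp2. It also added calls, among them Pdgfra, Lum, Map2, Rab3c and Sytl2. DESeq2 called 1 gene of granule formation. The replicate block by label number, whose numbers do not pair the cultures, called 4 receptors. Without single libraries, 0 to 1 genes of granule formation and 5 to 11 receptors were called. Signs near 0 turned for genes that were not called. Cyp2r1 was at -0.03 with upper-quartile scaling, -0.05 and -0.06 with limma (pseudocounts 1 and 0.1) and -0.24 with the animal block. Ramp1 was at -0.05 with upper-quartile scaling and -0.004 without a filter. Leaving out each library gave -0.26 to 0.45 for Cyp2r1, -0.22 to 0.31 for Ramp1, -0.09 to 0.34 for Gata2 and -0.34 to 0.01 for Shld1. The cause was not tested. With 3 libraries a group, differences of genes under about 10 fragments were not resolved.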
